A study of Mus musculus with 17 samples.

Results

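The genes described here encode secreted and membrane-bound metalloproteases and their tissue inhibitors, followed across B cells, CD4 T cells and epithelial cells sorted from the lacrimal gland and, for the lymphocytes, from the spleen of male NOD mice. Members were all genes whose symbol places them among the matrix metalloproteases (MMP), the tissue inhibitors of metalloproteases (TIMP), the disintegrin metalloproteases (ADAM) or the ADAM proteases with thrombospondin repeats (ADAMTS). There were 61 such genes among the 17097 genes with a probe set of their own: 18 MMP, 3 TIMP, 26 ADAM and 14 ADAMTS genes. The other 19 genes whose symbols meet the rule, Timp4, Mmp15, Mmp25, Adamts2 and Adamts13 among them, were not analysed here.

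NOD mice develop lymphocytic infiltration of the lacrimal gland and serve as a model of Sjögren's syndrome. The 17 arrays comprised 4 of gland B cells, 4 of gland CD4 T cells, 3 of gland epithelial cells, 3 of spleen B cells and 3 of spleen CD4 T cells, with the spleen subsets given as the steady-state control. The gland came from mice of 16 weeks. For the spleen the sample labels give 16 weeks and the design text gives 4 weeks, so age may be confounded with tissue. Gland suspensions were made by mechanical dissociation and enzymatic digestion, and no digestion is stated for the spleen. All groups were sorted by flow cytometry, epithelium as CD45-CD326+ cells, T cells as CD3+CD4+ cells and B cells as B220+CD3- cells. The labels do not say that replicates came from separate animals, so p-values measure the spread between these arrays, which may be technical.

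MMPs are made as inactive proenzymes and, once activated, cut collagens, gelatin, basement membrane proteins and many chemokines and cytokines. Most are secreted, and some carry a membrane anchor. ADAM proteases are membrane proteins, several of which release the outer part of cell-surface receptors, ligands and adhesion molecules, a step called shedding. ADAMTS proteases are secreted and cut matrix proteoglycans, procollagens and other matrix proteins. TIMPs bind the active site of these enzymes and block it. In exocrine glands these enzymes are studied for their action on the basement membrane around acini and ducts, and in lymphocytes for migration and for shedding of surface molecules.

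Levels are log2 array intensities as deposited. Within 1 probe set they can be compared between arrays, whereas levels of different genes cannot be ranked against each other. The values carry no detection calls. The median of all values, 4.71, is used below only as a mark of dim signal, and a fold against a level under it is a ratio of deposited values whose lower side may be background. In bulk samples fewer cells of a type and less RNA per cell cannot be told apart. A difference was called when limma's Benjamini-Hochberg adjusted p over all genes was under 0.05 and the fold change was at least 2. All adjusted p-values below are from that limma fit, and errors of differences are its standard errors (SE).

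About as many members were dim in every group as were not. In 30 of the 61 members (49.2%) every group mean lay below the median of all values, against 5450 of 17097 genes (31.9%). The share was 11 of 18 for MMPs, 15 of 26 for ADAMs, 4 of 14 for ADAMTS genes and 0 of 3 for TIMPs. At least 1 of 6 comparisons was called for 26 members (42.6%), against 5489 of all genes (32.1%). These were 7 MMPs, 2 TIMPs, 8 ADAMs and 9 ADAMTS genes. Among the 31 members with a group mean above the median, the epithelial sort had the highest mean for 17 (54.8%), against 33.7% of the 11647 genes so placed. Gland CD4 T cells had it for 5 members, gland B cells for 4, spleen CD4 T cells for 3 and spleen B cells for 2.

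**Figure D1:**
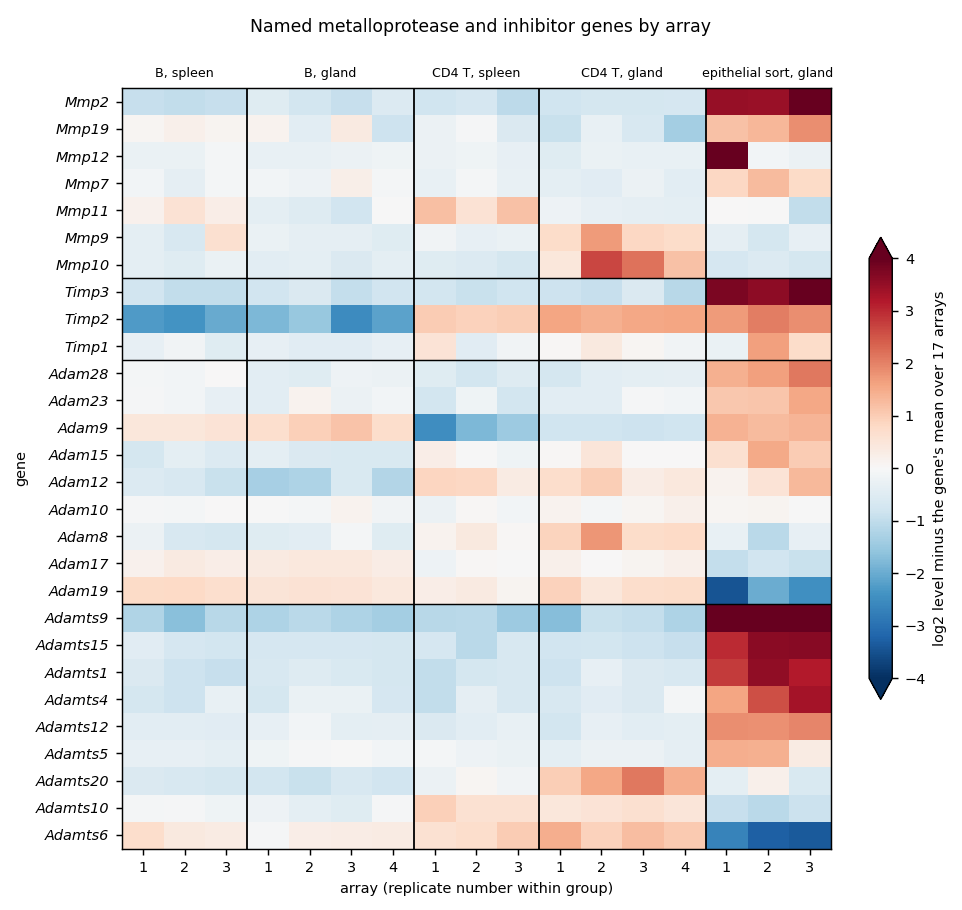
Log2 level of each named member in each of the 17 arrays, as the difference from that gene's mean over all arrays. Colour runs from 4 below (blue) to 4 above (red), with larger differences drawn at the end of the scale; rows are grouped as MMP, TIMP, ADAM and ADAMTS genes. Mmp2, Timp3 and the ADAMTS genes Adamts9, Adamts15, Adamts1 and Adamts4 are red in the epithelial arrays, Mmp10, Mmp9 and Adamts20 in the gland CD4 T arrays, and Mmp12 in 1 epithelial array.

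Arrays of a group correlated at 0.976 to 0.996. RNA integrity is given as lower for 3 samples than for the rest, and the labels used here do not tie these 3 to arrays. Each group carried the lineage genes of its sort label, but genes of other cells were also seen in several arrays. The mean of 5 leukocyte genes was 11.14 to 11.28 in the lymphocyte arrays and 4.15 and 4.19 in epithelial replicates 2 and 3, but 9.43 in epithelial replicate 1, where Ptprc, the gene of the CD45 antigen used to gate these cells out, stood at 9.62. The natural killer list was 6.68 and the T cell list 6.18 in that array, against at most 2.88 and 3.69 in the other epithelial arrays. The epithelial list (Epcam, Krt18, Krt8, Cdh1 and Cldn7) averaged 10.67 to 11.01 in the epithelial arrays, 6.52 to 7.23 in gland lymphocytes and 3.85 to 4.05 in spleen lymphocytes. Spleen B cell replicate 3 stood apart in its neutrophil list, described with Mmp9 below. The epithelial arrays also carried the endothelial list at 7.91 to 8.43, the fibroblast list at 5.88 to 6.39 and the myoepithelial list at 8.26 to 8.59, against at most 4.52, 3.54 and 4.63 in the lymphocytes. The red cell list was at 8.88 to 9.23 in the epithelial arrays, against at most 7.02 in the lymphocytes. "Epithelial sort" is therefore used below for the group as labelled.

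Gland CD4 T cells differed from spleen CD4 T cells in a small set of secreted and membrane-bound proteases. Mmp10, Adamts20, Mmp9 and Adam9 were higher in the gland and Mmp11 was lower, 4 and 1 of 61 members, beside 5.35% and 1.62% of all genes. The median difference over members was -0.04 and over all genes -0.03. The shares of members and of all genes called, 5 of 61 and 6.97%, were close.

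Mmp10 encodes a secreted stromelysin that cuts proteoglycans and fibronectin and activates other proMMPs. Its log2 level was 4.34, 6.56, 6.05 and 5.06 in the gland CD4 T arrays and 3.40, 3.34 and 3.18 in the spleen CD4 T arrays. All gland arrays lay above all spleen arrays, although replicate 1 was itself below the median of all values and the gland arrays spread over more than 2 log2 units. The difference was 2.19 (SE 0.35), a 4.57-fold change with adjusted p = 0.000197. Without gland CD4 T replicate 2, the highest array, the difference was 1.84 with adjusted p = 0.000189.

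In the other groups Mmp10 stayed low. It stood at 3.46, 3.49, 3.29 and 3.47 in gland B cells, at 3.49, 3.40 and 3.60 in spleen B cells and at 3.21, 3.33 and 3.16 in the epithelial sort. The gland change in CD4 T cells exceeded that in B cells by 2.26 (SE 0.49, adjusted p = 0.00613). Within the gland, B cells were lower than CD4 T cells by a factor of 4.22 (adjusted p = 9.298e-05). Mmp10 was also called lower in the epithelial sort than in gland lymphocytes (-1.23, adjusted p = 0.00243), although the epithelial arrays overlapped those of gland B cells. No other member of the gene's chromosomal neighbourhood was called between gland and spleen CD4 T cells. In mouse, 10 MMP genes lie side by side on chromosome 9 with no other protein-coding gene between them in the RefSeq annotation, in the order Mmp13, Mmp12, Mmp1b, Mmp3, Mmp1a, Mmp10, Mmp8, Mmp27, Mmp20 and Mmp7. Of these, 9 were measured here, and Mmp10 alone passed.

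Promoters of this gene group are shown because most of its measured members, for all their different calls, share letters near the start. The genes printed all hold both motifs described below. The lines give the 110 bases before the RefSeq start, 5′ to 3′ on the gene's strand. Capitals mark 2 motifs, the AP-1 element TGANTCA, which reads the same on both strands, and the TATA box TATAAA, searched on both strands. The windows are, in GRCm38.p6 and all on the plus strand, chr9:7502232-7502341 for Mmp10, chr9:7445712-7445821 for Mmp3, chr9:7272404-7272513 for Mmp13 and chr9:7691980-7692089 for Mmp7.
Mmp10: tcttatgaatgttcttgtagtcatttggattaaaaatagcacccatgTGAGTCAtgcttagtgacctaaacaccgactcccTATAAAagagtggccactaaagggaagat
Mmp3: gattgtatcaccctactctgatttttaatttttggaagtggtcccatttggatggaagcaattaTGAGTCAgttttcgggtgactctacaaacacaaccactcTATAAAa
Mmp13: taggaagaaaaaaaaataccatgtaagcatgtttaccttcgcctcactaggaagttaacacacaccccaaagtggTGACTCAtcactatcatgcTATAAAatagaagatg
Mmp7: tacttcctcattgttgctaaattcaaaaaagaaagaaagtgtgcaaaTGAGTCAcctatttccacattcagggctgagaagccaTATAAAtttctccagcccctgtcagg

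Counted back from the start, TGANTCA begins at -63 and TATAAA at -29 in Mmp10, at -46 and -7 in Mmp3, at -35 and -16 in Mmp13, and at -63 and -26 in Mmp7. In RefSeq windows of 300 bases, from 250 before to 50 after a start, TGANTCA occurs in 7.81%, TATAAA in 13.6% and both in 1.54% of 32851 windows. A window was found for 35 of the 61 members, 40 windows in all. In the chromosome 9 group both motifs occur together in 8 of 11 windows, and in 8 of 9 genes, all but Mmp8. No other member window holds both (0 of 29). A match is a description of letters and not a site in use. Of the genes printed, Mmp10 was called higher in gland than spleen CD4 T cells and lower in the epithelial sort, beside its other calls above. Mmp7 was called higher in the epithelial sort, and Mmp3 and Mmp13 had no call.

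Mmp9 encodes gelatinase B, a secreted enzyme of activated leukocytes that cuts gelatin and the type IV collagen of basement membranes. It stood at 4.90, 5.87, 5.02 and 4.92 in gland CD4 T cells and at 4.03, 3.87 and 3.93 in spleen CD4 T cells. The groups did not overlap, and gland replicate 2 stood apart above the other arrays. The difference was 1.24 (SE 0.26), 2.36-fold, with adjusted p = 0.00214. Without replicate 2 it was 1.01 (adjusted p = 0.00489).

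A second Mmp9 probe set gave 4.12, 5.44, 4.35 and 4.46 in gland CD4 T cells and 3.96, 3.89 and 3.79 in spleen CD4 T cells. It ran in the same direction and again without overlap, but its difference of 0.71 (adjusted p = 0.0428) was under 2-fold and not called. In B cells the main probe set gave 3.92, 3.82, 3.83 and 3.70 in the gland and 3.78, 3.55 and 4.81 in the spleen. In the epithelial sort it gave 3.83, 3.47 and 3.85. Only 1 array outside gland CD4 T cells, spleen B cell replicate 3, was above the median of all values.

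That spleen B cell array also had a high neutrophil list, 5.35 against 3.19 and 3.27 in the other spleen B cell arrays and 2.96 to 3.18 elsewhere. S100a8 and S100a9, abundant calcium-binding proteins of neutrophils, stood there at 9.63 and 9.72, whereas Csf3r (3.61), Cxcr2 (2.06), Elane (3.16) and Mpo (3.91) lay below the median of all values. Mmp8, the neutrophil collagenase, named here after its values were seen, was 3.83 in the same array against 2.84 and 2.79 in the other 2. The part of such cells in the Mmp9 value was not tested. With this array left out, the Mmp9 difference in B cells moved from -0.23 (adjusted p = 0.617) to 0.15 (adjusted p = 0.741), and the excess of the CD4 T cell change over the B cell change moved from 1.47 (SE 0.37, adjusted p = 0.0162) to 1.09 (adjusted p = 0.0294). The excess was called in both fits.

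**Figure D2:**
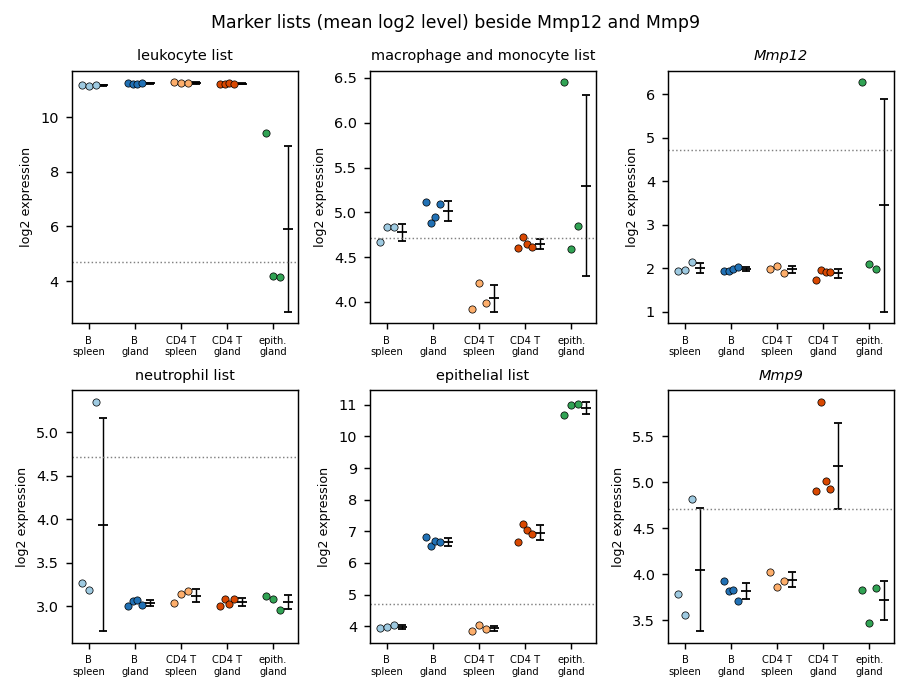
Mean log2 level of 4 marker lists beside the log2 levels of Mmp12 and Mmp9, 1 point per array; bars give the group mean and SD, and the dotted line is the median of all values, 4.71. Epithelial replicate 1 carries the leukocyte list at 9.43 and Mmp12 at 6.28, and spleen B cell replicate 3 carries the neutrophil list at 5.35 and Mmp9 at 4.81.

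Adamts20, a versican-cutting protease known in mouse for melanoblast development, was at 3.17, 3.73, 4.28 and 3.65 in gland CD4 T cells and at 1.95, 2.26 and 2.05 in spleen CD4 T cells. Every gland array was above every spleen array, and every array of all groups was below the median of all values. The difference was 1.62 (SE 0.21), 3.08-fold, with adjusted p = 2.666e-05. B cells stood at 1.29 to 1.56 in the gland and 1.48 to 1.60 in the spleen. The CD4 T cell change exceeded the B cell change by 1.73 (SE 0.29, adjusted p = 0.000933).

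Adam9, a widely expressed membrane protease, gave nearly equal levels in the gland CD4 T arrays, 7.19, 7.18, 7.15 and 7.19, and 5.49, 6.18 and 6.54 in spleen CD4 T cells. The lowest gland array was above the highest spleen array, and the spread lay within the spleen group. The difference was 1.10 (SE 0.18), 2.15-fold, with adjusted p = 0.000216. It was 0.81, under 2-fold, without spleen CD4 T replicate 1. The excess over the B cell change was 0.73 (adjusted p = 0.0799) and did not pass.

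Mmp11 encodes a stromelysin that is cut into its active form inside the cell, by furin. It was at 3.32, 3.19, 3.16 and 3.14 in gland and 4.74, 4.11 and 4.69 in spleen CD4 T cells. Here all gland arrays were the lower ones, and 1 spleen array was just above the median of all values. The difference was -1.31 (SE 0.23), 2.48-fold lower, with adjusted p = 0.000499. In B cells the levels were 3.14, 3.01, 2.77 and 3.53 in the gland and 3.70, 4.10 and 3.78 in the spleen, again without overlap, a difference of -0.75 (adjusted p = 0.0346) that was under 2-fold and not called.

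Adam8, a leukocyte protease of the shedding type, passed the p threshold but not the fold minimum. Its levels were 6.60, 7.50, 6.46 and 6.52 in gland and 5.87, 6.12 and 5.77 in spleen CD4 T cells, a difference of 0.85 (SE 0.24, adjusted p = 0.0166). Replicate 2 was again the highest gland array. In B cells Adam8 lay between 5.23 and 5.64 in the gland and between 5.03 and 5.48 in the spleen.

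**Figure D3:**
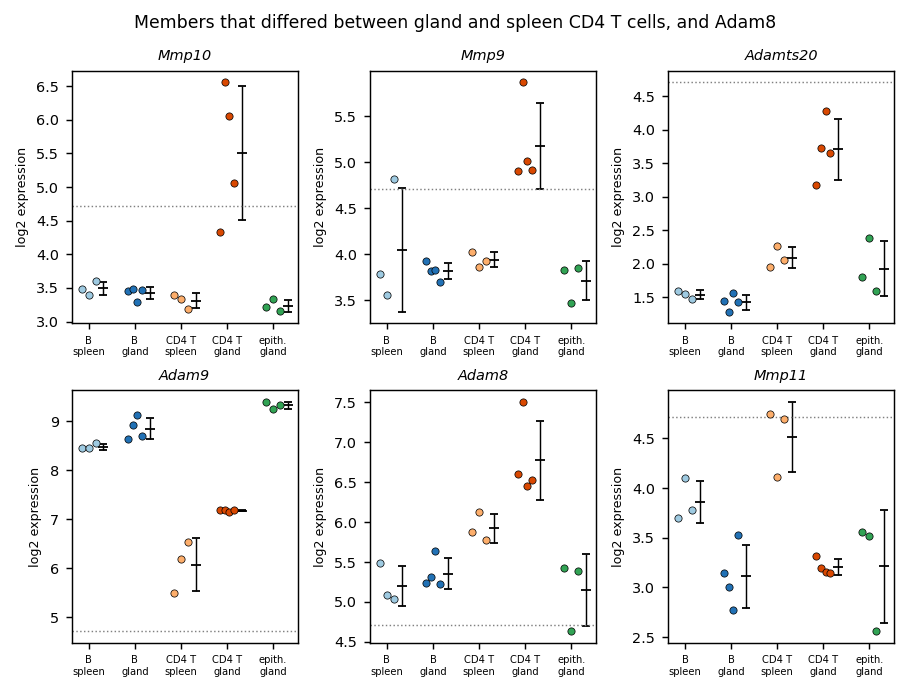
Log2 level of 6 members in every array of the 5 groups, with group mean and SD beside the points and the median of all values, 4.71, as a dotted line. Gland CD4 T arrays lie above spleen CD4 T arrays for Mmp10, Mmp9, Adamts20, Adam9 and Adam8 and below them for Mmp11; the vertical scales differ between panels.

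Gland lymphocyte arrays carried the epithelial list well above the spleen arrays, so the members' levels in the epithelial sort are given beside these differences. The lacrimal secretory list was higher there too, at 8.04 to 8.90 against 4.07 to 6.35 in spleen lymphocytes. The endothelial, fibroblast and myoepithelial lists differed less between gland and spleen. In CD4 T cells the macrophage and monocyte list also differed, at 4.60 to 4.72 in the gland and 3.92 to 4.21 in the spleen. Mean levels in gland against spleen were 5.39 and 3.97 for Cd14, 6.46 and 5.52 for Cd68, and 4.57 and 3.87 for C1qa. They were 3.86 and 3.39 for C1qb, but close for Csf1r (4.09 and 4.14) and Adgre1 (3.51 and 3.37). Cd14 was also high in the epithelial sort, at a mean of 8.57. The red cell list ran the other way, at 6.64 to 6.92 in the spleen. It was lower in every gland CD4 T array, from a lowest value of 4.54. In B cells the macrophage and monocyte list was at 4.89 to 5.12 in the gland and 4.66 to 4.83 in the spleen. Mean levels there were 7.24 and 6.56 for Cd68, 5.04 and 4.39 for Cd14, and 4.45 and 4.19 for C1qa. They were 3.87 and 3.36 for C1qb, close for Csf1r (4.12 and 4.08) and lower in the gland for Adgre1 (5.35 and 6.07). The dendritic cell list in B cells was at 4.31 to 4.67 and 4.08 to 4.19. The plasmacytoid dendritic cell list in B cells was at 8.42 to 9.42 in the gland and 8.00 to 8.23 in the spleen. It rested on 3 measured genes. Their gland and spleen means were 7.66 and 5.53 for Ccr9, 9.23 and 9.12 for Tcf4, and 10.15 and 9.78 for Irf8. The part of any of these in the member differences was not tested. Mmp10, Mmp9 and Adamts20 were low in the epithelial sort, with means of 3.24 ± 0.09, 3.72 ± 0.21 and 1.92 ± 0.41 (SD, n = 3), each below the gland CD4 T mean. Adam9 was high in that sort, at 9.33 ± 0.07, and the part of epithelial RNA in its gland difference was not tested. Adamts9, with the widest epithelial excess on the probe set used for each member, differed between gland and spleen by 0.09 (95% interval -0.29 to 0.47) in the B subset and 0.01 (-0.38 to 0.39) in the CD4 T subset, and Timp3 by 0.15 (-0.17 to 0.48) and -0.04 (-0.37 to 0.29). On the Timp3 probe sets with the largest epithelial excess, 7.62 and 6.89, the gland difference in CD4 T cells was 0.30 (adjusted p = 0.19) and 0.39 (adjusted p = 0.0987). In B cells it was 0.13 and 0.23, and none of these passed. Which cells of the epithelial sort carried Adamts9 and Timp3 was not tested, nor was the part of secretory cell RNA in the gland differences.

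Gland B cells differed from spleen B cells in no member: 0 of 61 were called by limma, beside 4.18% of all genes (2.58% higher and 1.6% lower), and 6 members had an unadjusted p under 0.05. By adjusted p alone, 1 member was higher and 2 were lower. Adam26a, a testis-type ADAM named here because the count is small, was higher, and Mmp11 and Adam1a (-0.55) were lower. Member differences ran from -0.75 to 0.37, with a median of -0.01 against 0.00 over all genes. The member with the largest B cell increase was Adam9, at 8.65, 8.93, 9.12 and 8.70 in the gland and 8.45, 8.45 and 8.55 in the spleen. The arrays did not overlap, but the difference of 0.37 (95% interval -0.0046 to 0.75, adjusted p = 0.175) did not pass. Of the tests of the excess of the CD4 T cell change over the B cell change, 3 members passed upward (beside 3.87% of all genes) and 0 downward (beside 1.22%), and 8 had an unadjusted p under 0.05.

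B and CD4 T cells differed most in Timp2, the inhibitor that also helps to activate proMMP2 at the cell surface. Timp2 stood at 9.34, 9.16, 9.31 and 9.34 in gland CD4 T cells and at 8.76, 8.69 and 8.75 in spleen CD4 T cells. B cells were far lower, at 5.95, 6.23, 5.25 and 5.61 in the gland and 5.48, 5.37 and 5.74 in the spleen. All B cell arrays were below all T cell arrays in both tissues, by 11.6-fold in the gland (log2 difference -3.53, SE 0.16, adjusted p = 4.173e-11) and 9.21-fold in the spleen (-3.20, SE 0.18, adjusted p = 1.076e-09). Of its 5 probe sets, 4 were called in each tissue. The gland CD4 T arrays were above the spleen ones without overlap, but the difference of 0.56 (adjusted p = 0.0267) was under 2-fold. On another probe set it was 1.39 (adjusted p = 0.000409) and over 2-fold. On the remaining probe sets it was 0.23, 0.23 and 0.08 (adjusted p = 0.416, 0.4435 and 0.724), and none of these passed.

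Adam9 had the opposite order, higher in B than in CD4 T cells by 3.19-fold in the gland (1.67, SE 0.16, adjusted p = 5.675e-07) and 5.30-fold in the spleen (2.41, SE 0.19, adjusted p = 5.016e-08). Adam12, a membrane protease known from muscle and stroma, was higher in CD4 T cells. Its levels were 5.39, 5.68, 4.99 and 5.10 in gland CD4 T cells and 3.35, 3.46, 4.06 and 3.53 in gland B cells, and 5.53, 5.51 and 5.01 against 4.14, 4.05 and 3.80 in the spleen. No arrays overlapped, with differences of -1.69 (adjusted p = 2.576e-05) and -1.36 (adjusted p = 0.00107), both called on both of its probe sets. In the gland Adam8 was also lower in B than in CD4 T cells (-1.42, adjusted p = 0.000108), as were Adamts20 (-2.28), Mmp10 (-2.08) and Mmp9 (-1.36). For these 4 the spleen difference did not pass, at -0.72, -0.55, 0.19 and 0.11.

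In all, 1 member was higher and 6 lower in gland B than gland CD4 T cells (beside 3.73% and 5.97% of all genes, 9.7% in all), and 1 was higher and 2 lower in the spleen (beside 4.63% and 4.52%, 9.15% in all). The median member difference was 0.05 in the gland and -0.01 in the spleen, against 0.04 and 0.00 over all genes. Both comparisons share arrays with the gland against spleen comparisons, so their values are not independent of those above.

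The epithelial sort carried several matrix-directed ADAMTS proteases, Mmp2 and the inhibitor Timp3 at higher levels than gland lymphocytes. The inhibitor Timp2 was also called higher, but mostly as a difference from gland B cells. Against the average of both gland lymphocyte subsets, 16 of 61 members were higher and 5 lower, beside 14.9% and 9.81% of all genes and 24.7% in both directions together. ADAMTS genes had 6 higher and 2 lower of 14, MMPs 4 and 1 of 18, ADAMs 4 and 2 of 26, and TIMPs 2 and 0 of 3. The median difference over members was -0.03, against -0.10 over all genes. A call also required a mean on the same side of each lymphocyte subset.

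Adamts9, a secreted protease of the secretory pathway and pericellular matrix, had the largest difference. It stood at 9.35, 9.63 and 9.62 in the epithelial sort, while all 14 lymphocyte arrays lay between 2.08 and 2.88. The epithelial arrays were thus far apart from the rest, by 6.97 (SE 0.16) on the log2 scale, 125-fold, with adjusted p = 6.007e-15. All 3 of its probe sets were called, the smallest at 2.71.

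Adamts15 and Adamts1, proteoglycan-cutting enzymes, had the same pattern. Adamts15 was at 6.14, 6.76 and 6.80 in the epithelial sort and at most 2.49 in gland lymphocytes, a 17.8-fold difference (4.15, SE 0.13, adjusted p = 1.358e-13). Adamts1 was at 7.94, 8.69 and 8.30, against 4.28 to 4.79 in gland lymphocytes, a 13.9-fold difference (3.79, SE 0.14, adjusted p = 9.905e-13). Neither overlapped with the lymphocyte arrays.

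Adamts4 and Adamts5 are the aggrecanases. Adamts4 spread widely, at 4.90, 5.89 and 6.66, yet stayed above all gland lymphocyte arrays, 2.62 to 3.25 (2.95, SE 0.27, adjusted p = 6.571e-08). Adamts5 was at 5.47, 5.43 and 4.34 on its brightest probe set (1.27, SE 0.17), and 3 of its 4 probe sets were called, the largest at 3.39. Adamts12, at 5.51, 5.51 and 5.62, was 4.80-fold higher (2.26, SE 0.09), on 1 of its 2 probe sets.

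Adamts6 and Adamts10, related proteases known for work on fibrillin matrix and adhesion, were lower in the epithelial sort. Adamts6 stood at 2.85, 2.25 and 2.16 there, at 5.46 to 5.85 in gland B cells and at 6.43 to 6.96 in gland CD4 T cells. It thus marked lymphocyte arrays without overlap, with a difference of -3.78 (SE 0.15, adjusted p = 3.394e-12) on 1 probe set and -2.37 on the other. Adamts10, at 7.03, 6.88 and 7.09 against 7.48 to 8.61, differed by -1.09 (SE 0.10), and 1 of its 2 probe sets was called.

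Mmp2, gelatinase A, a basement membrane and stromal enzyme, was at 6.66, 6.63 and 7.20 in the epithelial sort and at 2.25 to 2.70 in gland lymphocytes. The difference was 20.3-fold (4.35, SE 0.12, adjusted p = 4.983e-14). Mmp19, at 4.95, 5.08 and 5.63 against 2.42 to 4.13, was 3.85-fold higher (1.95, SE 0.24), on 1 of its 2 probe sets. Mmp7, or matrilysin, an enzyme of glandular epithelia, was at 4.69, 5.10 and 4.59 against 3.39 to 4.09, 2.23-fold higher (1.16, SE 0.11, adjusted p = 2.069e-07). The epithelial arrays were above the lymphocyte arrays for all 3. Fibroblast and endothelial lists were also higher in these arrays, as given above, and their part in the levels of Mmp2 and the ADAMTS genes was not tested.

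Mmp12, the macrophage elastase, was called on the strength of 1 array. It read 6.28 in epithelial replicate 1 and 2.10 and 1.98 in the other replicates, against 1.74 to 2.14 in all lymphocyte arrays. Replicate 1 was the array with the leukocyte list at 9.43, and its macrophage and monocyte list stood at 6.45 against 4.59 and 4.85 in the other epithelial arrays, with C1qa at 6.27 and C1qb at 6.11. The part of such cells in the Mmp12 level was not tested. The difference was 1.53 (SE 0.61, adjusted p = 0.0373) with all arrays and 0.11 (adjusted p = 0.241) without replicate 1.

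Leaving that array out gave 17 members higher and 6 lower, of which 20 were among the 21 called with all arrays. Timp1 (1.34, adjusted p = 0.00011) and Adam12 (1.17) were then called higher and Adam8 (-1.05) lower, and Mmp12 was lost. With all arrays these 3 were at 0.86, 0.90 and -0.91.

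**Figure D4:**
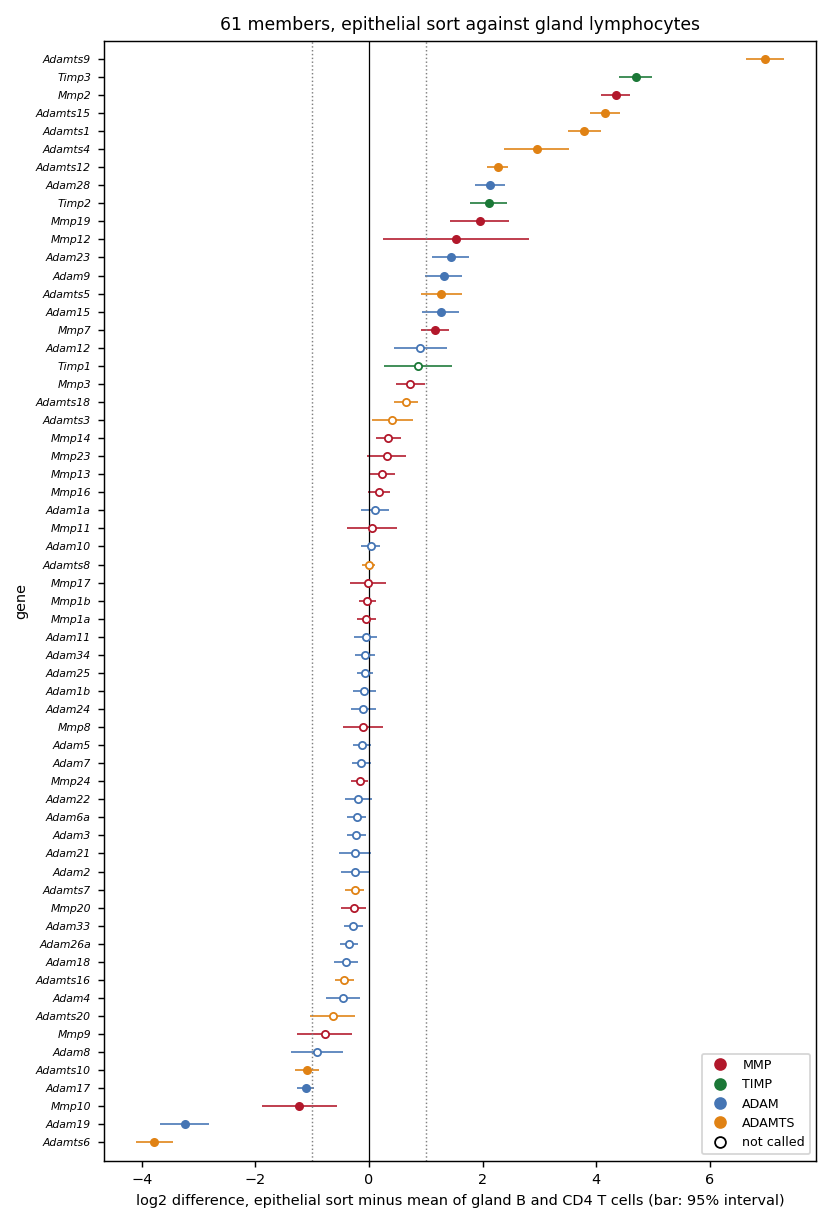
Log2 difference between the epithelial sort and the average of both gland lymphocyte subsets for all 61 members, with 95% intervals from the limma fit; filled points were called and dotted lines mark 2-fold. Adamts9 is highest at 6.97 and Adamts6 lowest at -3.78, most other members lie within 1 of 0, and Mmp12 has the widest interval, 0.24 to 2.82.

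The 3 inhibitors had different patterns. Timp3, which binds the extracellular matrix and inhibits several ADAM and ADAMTS enzymes as well as MMPs, was at 8.52, 8.34 and 9.06 in the epithelial sort and at 3.64 to 4.18 in every lymphocyte array. It was 26.0-fold higher (4.70, SE 0.14, adjusted p = 7.474e-14), on all 4 of its probe sets. Timp1, a soluble inhibitor induced in inflammation, spread over 3.85, 5.75 and 4.86 in the epithelial sort. Its lowest epithelial array, replicate 1, lay among the lymphocyte arrays, which ran from 3.63 to 4.67, and the difference of 0.86 (SE 0.28, adjusted p = 0.0141) was under 2-fold.

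Timp2 was at 9.47, 9.80 and 9.61 in the epithelial sort, above gland CD4 T cells at 9.16 to 9.34 and far above gland B cells. Its called difference of 2.10 (SE 0.15) was thus mostly a difference from B cells, and 3 of 5 probe sets were called. On 1 of the others, gland CD4 T cells, at 9.10, 9.61, 9.50 and 9.19, were above the epithelial arrays, at 7.47, 8.23 and 8.04.

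The promoter windows of Adamts9 and Timp3, whose epithelial differences were the largest, hold neither motif found in the chromosome 9 group. The lines give the 110 bases before the start as above, at chr6:92943535-92943644 on the minus strand for Adamts9 and chr10:86300302-86300411 on the plus strand for Timp3, in GRCm38.p6 from RefSeq. No match says only that these letters are absent from these windows.
Adamts9: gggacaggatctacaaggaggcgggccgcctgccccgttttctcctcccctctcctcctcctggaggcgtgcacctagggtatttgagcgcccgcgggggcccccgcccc
Timp3: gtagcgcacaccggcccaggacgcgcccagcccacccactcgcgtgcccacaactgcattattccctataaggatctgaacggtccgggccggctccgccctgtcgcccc

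Among the ADAM proteases, the 2 main sheddases behaved differently. Adam10, which sheds Notch, CD23 and many adhesion molecules, lay between 9.14 and 9.57 in all 17 arrays on its brightest probe set. None of its comparisons was called. On that probe set its epithelial difference was 0.03 (95% interval -0.14 to 0.19). Its gland differences were 0.02 (-0.17 to 0.21) for B cells and 0.19 (-0.0012 to 0.37) for CD4 T cells. On its other probe sets the epithelial difference was -0.13 (adjusted p = 0.523) and -0.38 (adjusted p = 0.0298), under 2-fold. Adam17, which releases TNF and L-selectin, was at 8.74, 8.93 and 8.80 in the epithelial sort against 9.48 to 10.10 in lymphocytes. It was lower in every epithelial array, 2.16-fold (-1.11, SE 0.07, adjusted p = 1.094e-09), on 2 of 3 probe sets. In gland B cells it was above gland CD4 T cells by 0.23 (adjusted p = 0.026), under 2-fold. Spleen B cells were above spleen CD4 T cells by 0.34 (adjusted p = 0.009), also under 2-fold.

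Adam19, a membrane protease also known as meltrin beta, was a gene of the lymphocyte arrays. Its levels were 4.30, 5.76 and 5.28 in the epithelial sort and 7.86 to 8.67 in lymphocytes, 9.49-fold lower in epithelium (-3.25, SE 0.20, adjusted p = 7.524e-10) on both probe sets. Within lymphocytes, gland B cells (8.26, 8.34, 8.30 and 8.17) were all below spleen B cells (8.53, 8.56 and 8.41), and gland CD4 T cells (8.67, 8.21, 8.44 and 8.49) all above spleen CD4 T cells (8.02, 8.12 and 7.86). On this probe set neither change passed, at -0.23 (adjusted p = 0.562) and 0.45 (adjusted p = 0.187). With both Adam19 probe sets averaged, the CD4 T cell change was 0.48 with adjusted p = 0.00258, still under 2-fold, and the B cell change was -0.19 with adjusted p = 0.248.

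Adam28, Adam23, Adam9 and Adam15 were higher in the epithelial sort. Adam28, known from human lymphocytes, was at 6.33, 6.55 and 7.04 against 4.22 to 4.70 in gland lymphocytes (2.13, SE 0.12, adjusted p = 2.989e-10), on 1 of 2 probe sets. Adam9 was at 9.39, 9.25 and 9.34, above gland B and CD4 T cells (1.31, SE 0.16). Adam15, at 8.19, 9.08 and 8.56, was 2.40-fold higher (1.26, SE 0.16), on 2 of 4 probe sets, and the brightest is of a type that may detect related sequences. Adam23, which lacks protease activity, was at 5.70, 5.73 and 6.17 (1.44, SE 0.15) on 1 of 3 probe sets, and another ran the other way at -0.49.

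**Figure D5:**
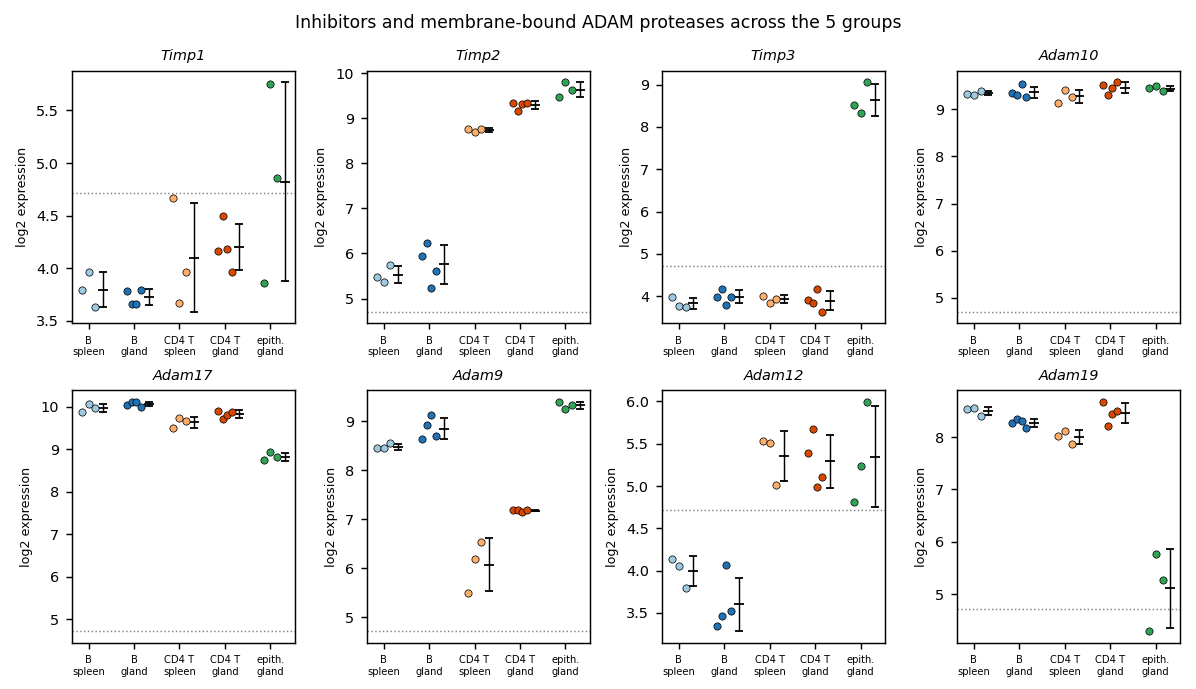
Log2 level of the 3 inhibitors and 5 ADAM genes in every array of the 5 groups, with group mean and SD beside the points and the median of all values, 4.71, as a dotted line where it falls in range. Timp2 separates B cells from the other groups, Timp3 and Adam19 separate the epithelial sort from lymphocytes in opposite directions, and Adam10 lies between 9.14 and 9.57 in all arrays.

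No comparison was called for the other 35 members. Of these, 8 had a group mean at or above the median of all values: Timp1, Adam10, Adam1a, Adam11, Mmp14, Mmp24, Adamts7 and Adamts16. The remaining 27 were below it in every group and include genes known mainly from testis or sperm, such as Adam2, Adam3, Adam5 and Adam18, and the collagenases Mmp8 and Mmp13. Over the 35 members and 6 comparisons, differences ran from -0.55 (Adam1a) to 0.86 (Timp1).

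Genes that work with these enzymes were counted on 6 lists. The lists were chosen with earlier results of these data known, so their shares beside those of all genes are descriptive. Of 12 plasminogen activation genes, whose product plasmin activates several proMMPs, 2 were higher in gland than spleen lymphocytes and 0 lower, in both subsets, beside 2.58% of all genes higher in B and 5.35% in CD4 T cells. They were Plaur, the urokinase receptor (4.02-fold in B and 2.24-fold in CD4 T cells), and Anxa2, a plasminogen-binding annexin (2.38-fold and 2.41-fold). In the epithelial sort 2 were higher, Plat (2.43) and Anxa2 (1.69), and 3 lower, with Serpini1 (-4.53) and Plaur (-3.69) first, beside 14.9% of all genes higher and 9.81% lower. The part of epithelial RNA in the gland difference of Anxa2 was not tested. The median list difference was 0.03 in B cells, 0.00 in CD4 T cells and -0.16 in the epithelial sort.

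Of 12 sheddase cofactors and prodomain convertases, limma called 0 between gland and spleen in either subset, and 4 had an unadjusted p under 0.05 in each. In the epithelial sort 5 were higher and 0 lower, beside 14.9% and 9.81% of all genes, with a list median of 0.40 against -0.10 for all genes. Tspan33 and Tspan15, tetraspanins that escort ADAM10, were higher by 2.88 and 2.02, Rhbdf1, an ADAM17 regulator, by 2.47, and Tspan5 by 1.10. Rhbdf1 was also higher in B than CD4 T cells in the gland (2.27) and in the spleen (2.24).

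Of 26 substrates of ADAM10 and ADAM17, 8 were higher and 0 lower in gland than spleen CD4 T cells, and 3 higher and 0 lower in B cells. Of all genes, 5.35% were higher and 1.62% lower in the CD4 T comparison and 2.58% and 1.6% in the B cell comparison. The list medians were 0.48 and 0.28, against -0.03 and 0.00 over all genes. Il1r2, a decoy receptor for interleukin-1, rose by 4.71 and Lag3, an inhibitory receptor, by 4.21 in CD4 T cells, and Havcr2 by 2.55. Cdh1, which is also an epithelial marker, was higher by 3.37 in CD4 T and 3.32 in B cells, and App (1.90) and Tnfrsf1b (1.19) were higher in B cells. In the epithelial sort 11 substrates were higher and 4 lower, beside 14.9% and 9.81% of all genes, with a list median of -0.09. F11r (4.96), App (4.08) and Cdh1 (3.71) had the largest increases. The part of epithelial RNA in the gland differences of App and Cdh1 was not tested. Fcer2a, the low-affinity IgE receptor CD23, was lower by the widest margin among the decreases (-3.80).

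Of 10 ADAMTS substrates, 5 were higher and 0 lower in the epithelial sort, beside 14.9% and 9.81% of all genes, with a list median of 1.22. Col3a1 (5.91), Col1a1 (3.75), Vwf (3.12) and Reln (3.07) led. Col3a1 and Col1a1 also belong to the fibroblast list and Vwf to the endothelial list. Between gland and spleen limma called 0 of these 10 in either subset, with 1 in B and 2 in CD4 T cells at an unadjusted p under 0.05.

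Of 15 other metzincins and ADAMTS-like proteins, 2 were higher in the epithelial sort and 0 lower, beside 14.9% and 9.81% of all genes, so the share higher was near that of all genes. They were Adamdec1, an ADAM-like secreted protease (5.27), and Adamtsl5 (1.27). None was called between gland and spleen, where limma gave 4 for B and 1 for CD4 T cells at an unadjusted p under 0.05. Of 11 other inhibitors, inducers and binders, 5 were higher and 1 lower in the epithelial sort, beside the same shares of all genes. Sparc, a matrix protein, was higher by 5.85, Lcn2, a lipocalin that binds MMP9, by 4.81, Cd9, a tetraspanin, by 3.44, and Tfpi2, a Kunitz-type inhibitor, by 3.36. The 1 lower gene was Cd44, a docking receptor for MMP9 (-2.76). Between gland and spleen, Cd44 (just 2-fold) and Lcn2 (2.98) were higher in CD4 T cells. In B cells Sparc (1.11) was higher and Cd9 (-1.32) lower. The part of epithelial RNA in the gland differences of Lcn2 and Sparc was not tested. Reck, a membrane-anchored MMP inhibitor, was lower in B than CD4 T cells in both tissues (-1.41 and -1.63).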

How the data were processed

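Cells were profiled on 17 Affymetrix HT MG-430 PM arrays in 5 groups. The deposited values are log2 expression levels per probe set, for which the submitters' processing notes name Partek and RMA without versions or settings. No depth applies to arrays, and the number of arrays limits the precision.

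Of 45141 probe sets, 28898 carried 1 gene symbol after updating through RefSeq identifiers, 551 several and 15692 none. Each of 17097 genes was represented by its probe set with the highest mean. The tests used lmFit and eBayes of limma 3.58.1 (R 4.3.3) on a model of 5 group means with 12 residual degrees of freedom, with Benjamini-Hochberg adjustment over all genes and calls at adjusted p under 0.05 and 2-fold. The fit was tested on simulated data. Members and lists were chosen with earlier results of these data known. Every member called in at least 1 comparison was named, with Mmp9, the Timp genes, Adam10 and Adam17, and from each list up to 4 called genes per comparison. Alternatives covered the fold minimum, a filter on dim genes, probe set averaging, 2 other normalizations, variance settings, array weights, a replicate block, fewer groups in the fit and each array left out. Promoter sequences are from RefSeq (GRCm38.p6). Protein sequences were not analysed here. Figures were drawn with matplotlib 3.10.9.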

Additional observations from a re-analysis of the deposited data

Results flagged for a closer look

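In groups of 4 arrays, 1 array stood far from the other 3 in 7 of the 56 groups tested, over 28 named members; chance alone gives about 1 in 20 groups. Gland CD4 T replicate 2 was the far array for 4 members: Mmp9 (5.87), Adam8 (7.50) and Adam15 (8.04), where it was the highest, and Timp2 (9.16), where it was the lowest. The others were gland CD4 T replicate 1 for Mmp12 (1.74), gland B replicate 2 for Adamts12 (3.55) and gland B replicate 3 for Mmp10 (3.29), all of them dim levels.

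The gland change differed between CD4 T and B cells by a test of the difference itself for Mmp10 (2.26, adjusted p = 0.00613), Adamts20 (1.73, adjusted p = 0.000933) and Mmp9 (1.47, adjusted p = 0.0162) in the limma fit. For Adam19 every gland array lay below the spleen arrays in B cells and above them in CD4 T cells, but the difference of the changes, 0.68, did not pass the limma test (adjusted p = 0.233). With both of its probe sets averaged the difference was 0.66 (SE 0.14) with adjusted p = 0.00655, under 2-fold.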

How the results depend on the processing

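No value of the 39 called pairs of member and comparison changed sign under the 26 alternatives, and 28 pairs kept their call under each one run. In CD4 T cells, the gland excess of Adam9 fell under 2-fold with arrays centred on their medians (0.95), with quantile normalization (0.98) and without spleen CD4 T replicate 1 (0.81), and that of Mmp9 with the mean of its probe sets (0.98). In the epithelial sort, centring brought Adam15 (0.95), Adam9 (0.997), Adamts5 (0.95) and Mmp7 (0.84) under 2-fold, and averaging probe sets did so for Adam23 (0.37), Mmp19 (0.97) and Adamts10 (-0.83). With averaging, Timp2 (1.07) was no longer above both lymphocyte subsets. Mmp12 lost its call under 9 alternatives, with adjusted p from 0.0506 to 0.241. Centring moved the median of all genes in that comparison from -0.10 to -0.42 and in CD4 T cells from -0.03 to -0.19. It gave 11 members higher and 7 lower in the epithelial sort, where all genes then split into 2067 higher and 2727 lower, against 2540 and 1677 on the deposited values and 2322 and 2136 after quantile normalization. The cause was not tested.

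With no fold minimum, more members passed: 1 higher and 2 lower in gland against spleen B cells, 6 higher and 3 lower in CD4 T cells, 3 higher and 2 lower for the difference of the changes, 22 higher and 16 lower in the epithelial sort, 7 higher and 10 lower for gland B against CD4 T cells and 3 higher and 4 lower in the spleen. A filter on dim genes left 28 members. It removed Mmp11 and Adamts20, among others, and gave 3 higher and 0 lower in CD4 T cells, 2 higher for the difference of the changes, 13 higher in the epithelial sort and 5 lower for gland B against CD4 T cells. With each array left out in turn, counts ranged from 0 to 0 in both directions in B cells, from 3 to 4 higher and 1 to 1 lower in CD4 T cells, 3 to 3 and 0 to 0 for the difference, 15 to 17 and 5 to 6 in the epithelial sort, 1 to 1 and 6 to 7 for gland B against CD4 T cells, and 1 to 1 and 2 to 2 in the spleen. Without gland CD4 T replicate 2, Adamts6 (-1.03) joined the members lower in gland B cells.

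Numbers were not treated as pairs because the labels do not say that equal numbers pair samples. Same-numbered arrays of different groups deviated together at -0.40 to 0.21 (median -0.02), and different-numbered ones at -0.29 to 0.41 (median 0.005). Deviations within such small groups constrain one another, so these values do not settle pairing. With the replicate number as a block, member counts were as without it except for 15 higher in the epithelial sort, where Mmp12 (1.54, adjusted p = 0.0531) was lost.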
